A study of Caenorhabditis elegans with 12 samples.

Results

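The genes described here encode the small secreted peptides of Caenorhabditis elegans that carry the symbols flp (FMRFamide-like peptides), nlp (neuropeptide-like proteins) and ins (insulin-like peptides). They were taken by symbol alone from the table that pairs array probes with genes. Of 107 such genes with a probe (23 flp, 61 nlp and 23 ins, each with 1 probe), 84 had a value on at least 3 of the 4 arrays of every group and could be tested, against 12887 genes tested in the whole series. The 84 members were 18 flp, 47 nlp and 19 ins genes.

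The study compared germ lines dissected from adult worms that lacked the histone methyltransferase MES-2, the histone methyltransferase MES-4 or both with germ lines of wild-type worms, at 20 °C. Each of 12 arrays of the 2-colour kind carried RNA of a mutant in one dye and RNA of a wild type in the other, with 4 arrays for each mutant. The mes-2; mes-4 double mutant (strain SS0965) and the mes-2 mutant (strain SS0186) were set against worms carrying unc-4(e120), and the mes-4 mutant (strain SS0803) against N2. The labels give no mes allele. Double-mutant germ lines were taken only where they had proliferated well and held oocytes, whereas the other germ lines came from adults with few or no fertilized embryos inside.

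Neuropeptides are cut from larger precursors, packed into dense-core vesicles and released, mostly from neurons, to act on G-protein-coupled receptors. Insulin-like peptides reach the DAF-2 insulin receptor from neurons and the intestine, some as agonists and some as antagonists, and so tie growth, dauer entry and germ-line proliferation to food. MES-2, a Polycomb-type enzyme, and MES-4 both act in the germ line to keep genes of other tissues and of the X chromosome low. Arrays of this kind give ratios and no levels, so whether a member was transcribed in the germ line at all, and whether the dissected tissue held other cells, could not be read from them. In bulk RNA, fewer cells of a type and less RNA per cell cannot be told apart.

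Every value below is the mutant's signal over that of its wild type on the log2 scale (log2 ratio), so that 1 is a doubling and 0 is no difference, and a value passed the threshold where limma gave a Benjamini-Hochberg adjusted p under 0.05 over all 12887 genes. The number of arrays limits the precision. As a check of the labels, the probe of mes-2 read -2.70, -2.07, -2.69 and -2.49 on the double-mutant arrays and -2.09, -3.72, -2.58 and -2.81 on the mes-2 arrays. The probe of mes-4 read -0.68, 0.70, 0.40 and -0.55 on the double-mutant arrays and 0.61, 0.82, -0.01 and 1.10 on the mes-4 arrays, so it did not mark the mes-4 mutation. Array medians over all genes tested lay between -0.02 and 0.05. After the groups and the dye were fitted, 1 axis took 47% of the remaining variance, with double-mutant arrays 1 and 4 and mes-4 array 3 at one end and double-mutant arrays 2 and 3 at the other.

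Most members stayed close to wild type in all 3 mutants. Of their 997 values, 51 (5.12%) lay beyond 1 in either direction, and the values ran from -3.05 to 4.05. In the double mutant 4 of 84 members passed the threshold, 3 higher and 1 lower, where 15.9% of all genes passed, 9.62% higher and 6.25% lower. In mes-4, 2 members passed, 1 in each direction, where 3.91% of all genes did (2.52% higher, 1.39% lower). In mes-2, 3 members passed, all higher, where 5.25% of all genes did (3.94% higher, 1.30% lower). The members' shares were 4.76%, 2.38% and 3.57% in that order, each below the share of all genes, which in the single mutants is a gap of under 2 members. At an unadjusted p under 0.05 there were 10 members in the double mutant, 6 in mes-4 and 12 in mes-2. Over all 12887 genes there were 3619, 1862 and 2127 in that order. Left-out arrays changed the counts of members past the adjusted threshold. The count in the double mutant was 1 without the double mutant's own replicate 2 or replicate 4, and 2 without mes-4 replicate 2 or mes-2 replicate 1. The mes-4 count was 0 without mes-4 replicate 1, 2 or 3 or mes-2 replicate 3 or 4, and 1 without mes-4 replicate 4, mes-2 replicate 1 or 2 or double-mutant replicate 2 or 4. The count over all genes moved as well when arrays were left out. It ran from 1289 to 2152 in the double mutant, 210 to 681 in mes-4 and 357 to 795 in mes-2.

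**Figure D1:**
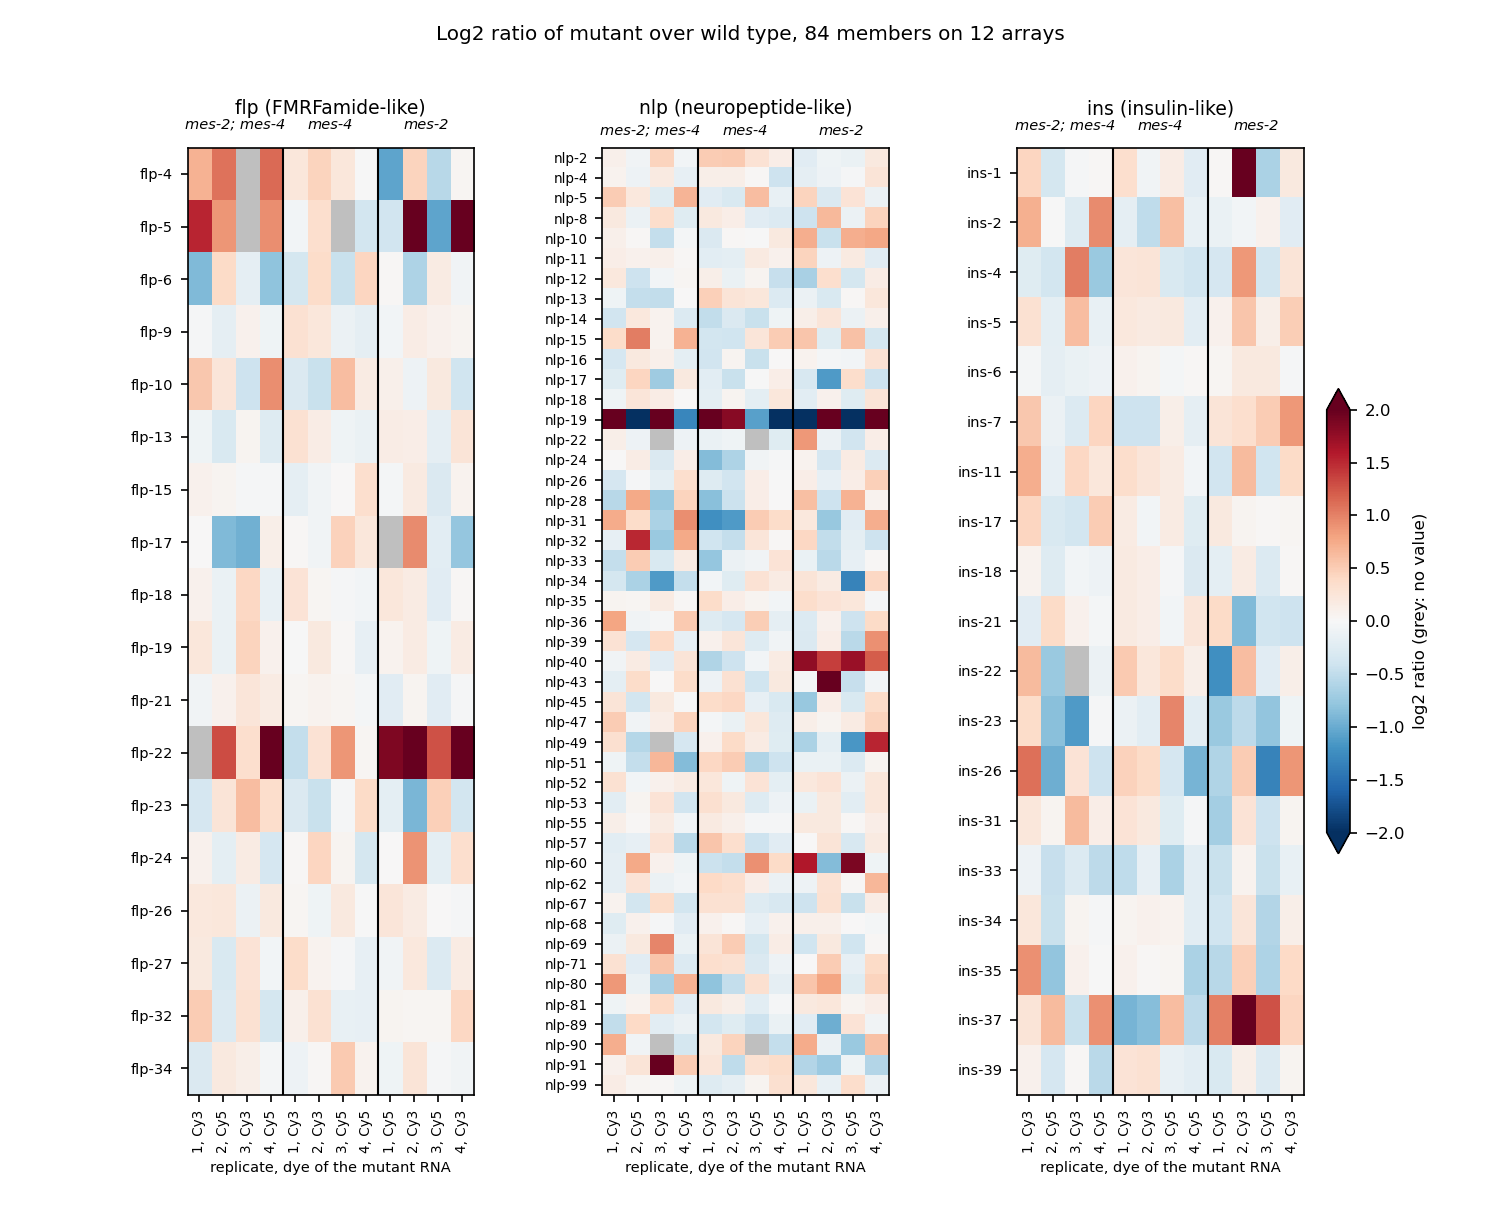
Log2 ratio for all 84 members tested, mutant against wild type, as rows by family and the 12 arrays as columns, marked with the replicate number and the mutant RNA's dye, with colours capped at 2 in either direction and grey where an array has no value. The rows of flp-22, nlp-40 and ins-37 are red across the 4 mes-2 arrays, and the row of nlp-19 changes colour with the dye.

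The median over the 84 members was 0.04 in the double mutant, 0.01 in mes-4 and 0.05 in mes-2, beside medians of all genes that were within 0.01 of 0. By family, the medians in the double mutant were 0.05 for flp, 0.03 for nlp and 0.05 for ins genes. In mes-4 they were 0.04, -0.02 and 0.01 in the same order of families. There 15 of 18 flp genes (83.3%), 42.6% of nlp and 63.2% of ins genes were above 0, where 49.5% of all genes were. Of the 18 flp genes, 0 had an unadjusted p under 0.05 in limma in mes-4. Likewise 0 lay on 1 side of 0 on every mes-4 array. In mes-2 the medians were 0.04, 0.07 and -0.07. No family moved as a block.

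The members that rose furthest did so in mes-2. The most even change among them belonged to nlp-40 on chromosome I, the gene of a peptide that the intestine releases to time the muscle contractions of defecation. On the double-mutant arrays nlp-40 read -0.07, 0.17, -0.23 and 0.25, and on the mes-4 arrays -0.60, -0.42, -0.06 and 0.16. On the mes-2 arrays it read 1.78, 1.39, 1.72 and 1.21. All 4 mes-2 arrays stood above all 8 others, with a gap of about 1 between the groups. The fitted value was 0.03 in the double mutant (adjusted p = 0.872) and -0.23 in mes-4 (adjusted p = 0.169), while mes-2 had a rise of 1.53 (SE 0.08, adjusted p = 3.82e-06), a 2.88-fold difference from wild type.

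Among the members, nlp-40 was also the one whose response differed between mutants in every comparison that involved mes-2. The double mutant minus mes-2 gave -1.495 (SE 0.11, adjusted p = 4.47e-05), and 2 of 84 members passed in that comparison, 1 higher and 1 lower, where 6.19% of all genes did (3.57% higher, 2.62% lower). The mes-4 mutant minus mes-2 gave -1.755 (SE 0.11, adjusted p = 7.19e-05), the only member of 84 past the threshold there, beside 1.96% of all genes (0.652% higher, 1.30% lower). The double mutant fell short of the sum of the single mutants by a difference of -1.265 (SE 0.14, adjusted p = 0.00218), again the only member, beside 1.23% of all genes (0.683% higher, 0.551% lower). Between the double mutant and mes-4, 0 members passed, where 1.78% of all genes did (1.46% higher, 0.318% lower). At an unadjusted p under 0.05 in limma there were 7 members there, beside 1628 of all 12887 genes. These calls for nlp-40 held in every alternative run, except that the last one missed the threshold in the fit without a dye term (adjusted p = 0.0785). The mes-2 and double-mutant arrays used wild types of the same strain, whether of the same RNA is not given in the sources used here, and the mes-4 arrays used another strain, so a difference that involves mes-4 holds the difference between the wild types too. Each mutant was also a single strain. A trait of strain SS0186 outside its mes-2 mutation therefore cannot be told apart from an effect of that mutation in any of these comparisons.

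**Figure D2:**
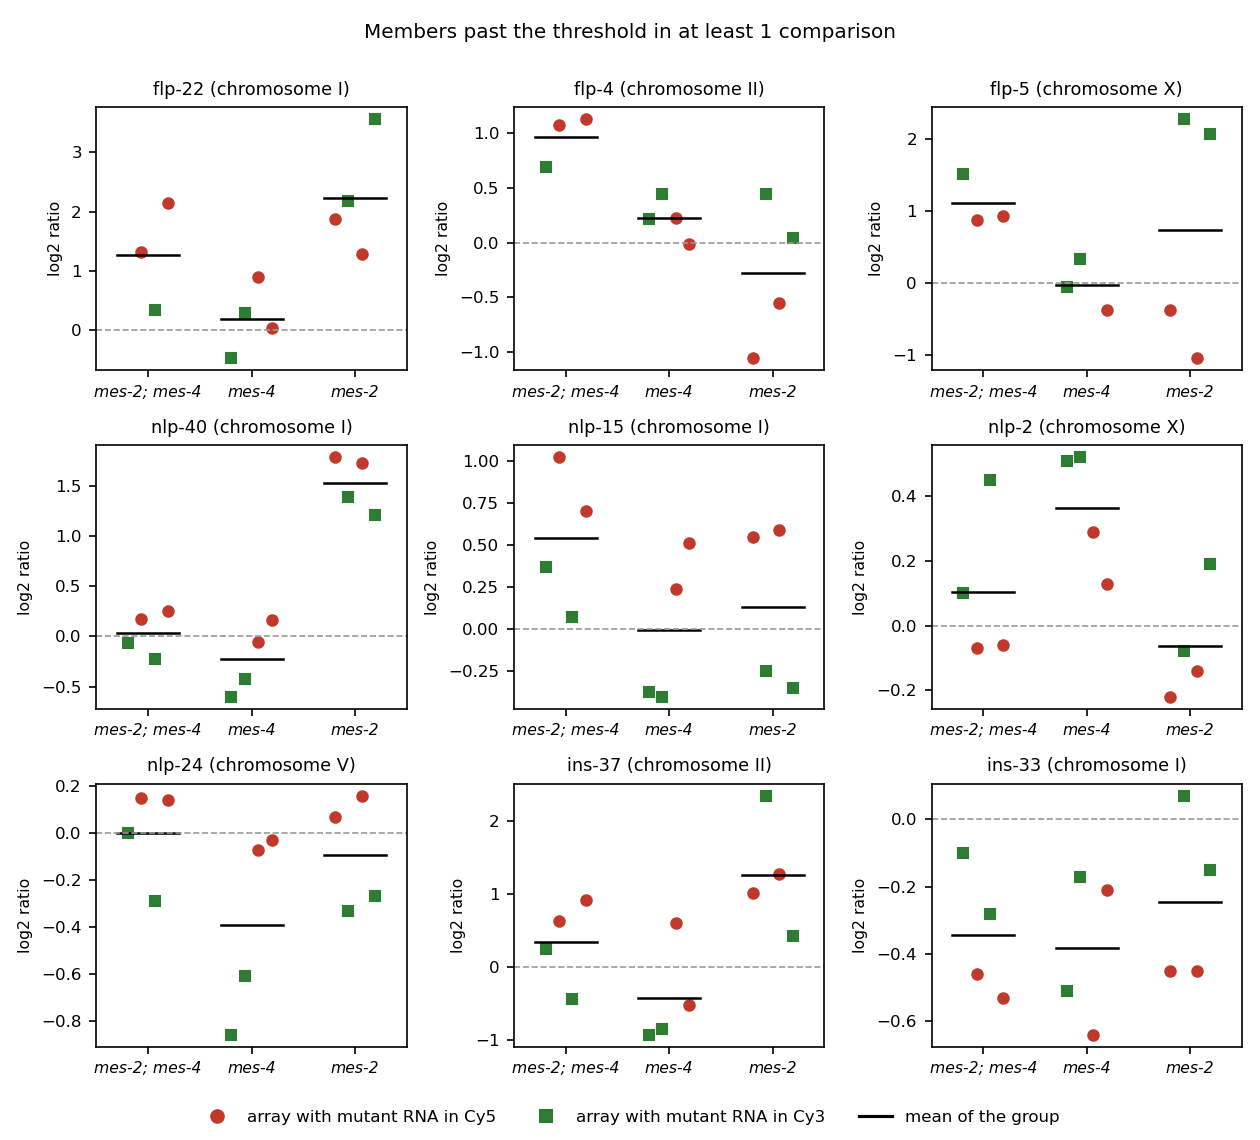
Log2 ratio on each array for the 9 members past the threshold in at least 1 comparison, by mutant, with circles where the mutant RNA was in Cy5, squares where it was in Cy3 and a bar at the plain mean of the group. The mes-2 points of nlp-40 lie between 1.21 and 1.78 in both dyes, above every other point of that gene.

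The tissue in which nlp-40 acts is the intestine, and the 18 intestinal marker genes tested, among them yolk protein and gut protease genes, gave no call in any mutant. Their medians were 0.40, 0.15, -0.12 and 0.16 on the double-mutant arrays. In mes-4 they were -1.28, -1.16, -0.21 and -0.18, with 11 of 18 genes at an unadjusted p under 0.05 in limma and none above 0. In mes-2, where nlp-40 rose, they were 0.09, 0.21, -0.45 and 0.24, on both sides of 0, and single genes ran from -0.32 to 1.02, with 2 at an unadjusted p under 0.05. The receptor of this peptide on enteric neurons, aex-2, read -0.01 in the double mutant, -0.09 in mes-4 and -0.09 in mes-2, with no call.

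On the chromosome, nlp-40 lies beside homt-1, an O-methyltransferase gene, with no protein-coding gene between them in RefSeq's WBcel235 annotation. The probe of homt-1 moved the opposite way in mes-2. For homt-1 the double mutant had -0.38 (adjusted p = 0.331) and mes-4 -0.46 (adjusted p = 0.428). In mes-2 it read -4.57, -4.81, -4.91 and -4.30, and the fitted value was -4.65 (SE 0.23, adjusted p = 3.74e-06). The nearest genes tested on the other side of nlp-40 were sesn-1, at 0.25 in mes-2, and txt-7, at 0.59 (adjusted p = 0.0626). Neither passed the threshold, and both were above 0 on all 4 mes-2 arrays, at 0.22, 0.36, 0.24 and 0.16 for sesn-1 and 0.82, 1.05, 0.03 and 0.45 for txt-7. None of the 4 nearest genes tested around flp-22 or around ins-37, the other members past the threshold in mes-2, passed it as lower in that mutant. Around flp-22 the mes-2 values were -0.15 for mog-7, 0.10 for syx-17, -0.18 for mrt-1 and 0.22 for syp-3. Of these, mrt-1 was below 0 and syp-3 above 0 on all 4 mes-2 arrays. Around ins-37 the mes-2 values ran from -0.14 (C01B9.1) to 1.38 (F08G2.4).

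**Figure D3:**
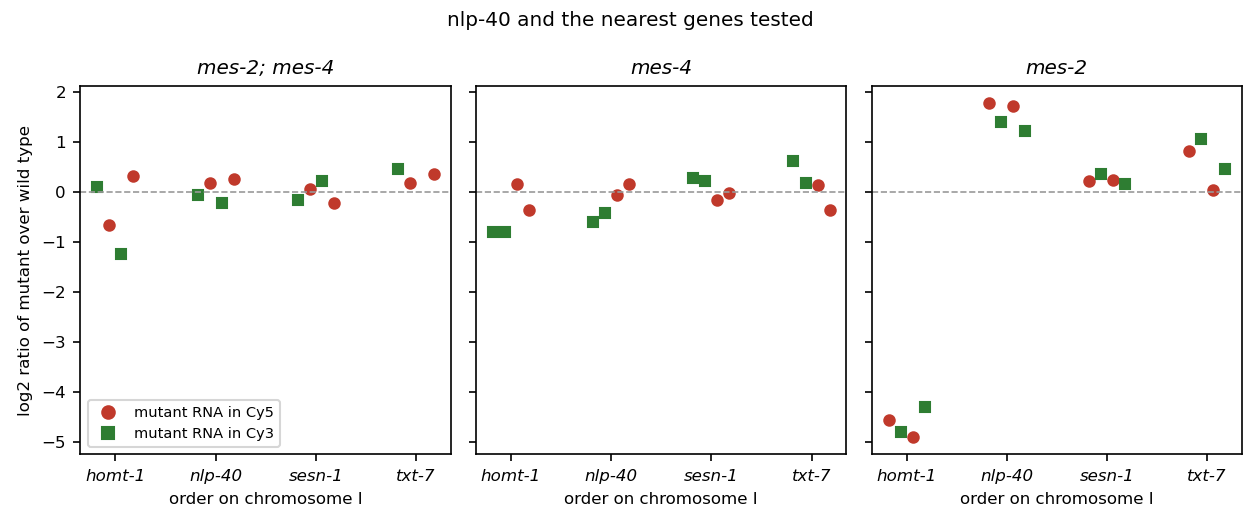
Log2 ratio on each array for nlp-40 and the 3 nearest genes tested, in their order along chromosome I, for the double mutant, mes-4 and mes-2 (circles, mutant RNA in Cy5; squares, in Cy3). In mes-2 the homt-1 points lie between -4.91 and -4.30 and the nlp-40 points between 1.21 and 1.78.

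The FMRFamide-like gene flp-22, also on chromosome I, had the largest rise of any member past the threshold. The double-mutant arrays read 1.31, 0.33 and 2.14, with no value on replicate 1, and the mes-4 arrays -0.48, 0.29, 0.89 and 0.04. The mes-2 arrays read 1.87, 2.18, 1.28 and 3.56, all above 1. The double mutant lay between the single mutants and overlapped both. Its fitted value was 1.25 (SE 0.44, adjusted p = 0.0925), that of mes-4 0.19, and mes-2 had a rise of 2.22 (SE 0.38, adjusted p = 0.00771). The mes-2 call held in all 22 alternatives that tested it, at values between 1.70 and 2.60. In the double mutant flp-22 passed without mes-2 replicate 4 (1.18, adjusted p = 0.0430), without double-mutant replicate 3 (1.91, adjusted p = 0.0454) and with array weights (1.96, adjusted p = 0.0151). The double mutant minus mes-2 was -0.97 (adjusted p = 0.416) and mes-4 minus mes-2 -2.04 (adjusted p = 0.105), both short of the threshold. With array weights mes-4 minus mes-2 passed (-2.24, adjusted p = 0.0176), as did the double mutant minus mes-4 (2.00, adjusted p = 0.0438).

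The third member that rose in mes-2 was ins-37 on chromosome II, an insulin-like gene. The double-mutant arrays of ins-37 read 0.25, 0.63, -0.44 and 0.92, and the mes-4 arrays -0.93, -0.85, 0.61 and -0.52. Its mes-2 arrays read 1.01, 2.35, 1.27 and 0.43, all above 0 but far apart, and both other groups overlapped them. The rise in mes-2 was 1.27 (SE 0.30, adjusted p = 0.0357). That call was lost in 11 of 23 alternatives, among them those without mes-2 replicate 1, 2 or 3, without mes-4 replicate 1, 2 or 4 and without double-mutant replicate 2 or 4, and without mes-2 replicate 2 the value was 0.76 (adjusted p = 0.0921). A gene near ins-37, F08G2.4, rose in the double mutant by 0.61 (adjusted p = 0.0141) and in mes-2 by 1.38 (adjusted p = 2.83e-04), and F08G2.8 rose in mes-2 by 0.49 (adjusted p = 0.0163). F08G2.7, which lies next to ins-37, had 0.13 in mes-2 and no call.

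In the double mutant the called members were flp-4, flp-5, nlp-15 and ins-33. The FMRFamide-like gene flp-4 on chromosome II read 0.69, 1.08 and 1.13 on 3 double-mutant arrays, with no value on replicate 3. It read 0.22, 0.45, 0.23 and -0.01 in mes-4 and -1.06, 0.45, -0.55 and 0.04 in mes-2, so all 3 double-mutant arrays stood above the 8 others. The rise was 1.03 (SE 0.22, adjusted p = 0.00999), and it differed from mes-2 by 1.31 (SE 0.29, adjusted p = 0.0262). From mes-4 it differed by 0.81 (SE 0.29), which missed the threshold (adjusted p = 0.248). The rise was no longer called without double-mutant replicate 2 (adjusted p = 0.0533) or replicate 4 (adjusted p = 0.0728), or on the double-mutant arrays alone (adjusted p = 0.125). The difference from mes-2 was lost in 7 of 22 alternatives, among them those without double-mutant replicate 2 or 4 and without mes-2 replicate 1, 3 or 4. Near flp-4, the gene bath-38 rose in the double mutant by 2.15, read 1.03 in mes-4 (adjusted p = 0.0505) and rose in mes-2 by 1.64. Among the other nearest genes tested, ogr-2 (-0.86, adjusted p = 0.00136) and lact-2 (-0.60, adjusted p = 0.00130) fell in mes-4. Neither passed in the double mutant or in mes-2, and die-1 had no call in any mutant.

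The X-linked gene flp-5 read 1.52, 0.88 and 0.93 in the double mutant, with no value on replicate 3. In mes-4 it read -0.06, 0.34 and -0.37, with no value on replicate 3 either. In mes-2 the values split by dye, at -0.38 and -1.05 where the mutant RNA was in Cy5 and 2.28 and 2.08 where it was in Cy3. The fit, which weighs the dyes, put the rise in the double mutant at 1.37 (SE 0.38, adjusted p = 0.0401), beside a plain mean of 1.11 over its 3 arrays. It missed the threshold in 10 of 22 alternatives, among them those without double-mutant replicate 2 or 4, mes-4 replicate 2 or mes-2 replicate 1 or 4. In mes-2 the value was 0.73 (adjusted p = 0.302).

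The gene nlp-15 on chromosome I encodes orcokinin-like peptides. It read 0.37, 1.02, 0.07 and 0.70 in the double mutant, above 0 on each array. In mes-4 it read -0.37, -0.40, 0.24 and 0.51, and in mes-2 0.55, -0.25, 0.59 and -0.35, with the sign in both following the dye of the mutant RNA. The rise in the double mutant was 0.54 (SE 0.09, adjusted p = 0.00185). The call was lost only in the fit without a dye term (adjusted p = 0.152) and on the double-mutant arrays alone (adjusted p = 0.164), among 23 alternatives. The double mutant minus mes-4 was 0.55 (adjusted p = 0.0617) and minus mes-2 0.41 (adjusted p = 0.0934). The other orcokinin-like gene, nlp-14 on X, had -0.10 in the double mutant, -0.33 in mes-4 (-0.49, -0.29, -0.44 and -0.08 by array, adjusted p = 0.191) and 0.09 in mes-2.

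The only member lower in the double mutant was ins-33 on chromosome I, an insulin-like gene that together with ins-3 promotes proliferation of the larval germ line. It read -0.10, -0.46, -0.28 and -0.53 in the double mutant, -0.51, -0.17, -0.64 and -0.21 in mes-4 and -0.45, 0.07, -0.45 and -0.15 in mes-2. Of the 12 arrays 11 were below 0, and the 3 groups overlapped fully. The fitted values were -0.34 in the double mutant (SE 0.10, adjusted p = 0.0393), -0.38 in mes-4 (SE 0.10, adjusted p = 0.0612) and -0.25 in mes-2 (adjusted p = 0.237). The call in the double mutant was lost in 16 of 23 alternatives, among them those without any of the 4 double-mutant arrays, without mes-4 replicate 2 and without mes-2 replicate 1, 3 or 4. In mes-4 it passed without mes-4 replicate 4 (-0.50, adjusted p = 0.0365), with array weights and with arrays scaled to a common spread. Its partner ins-3 had values on 9 arrays, too few in mes-4 to be tested.

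The 2 calls in mes-4 were small. The X-linked gene nlp-2 read 0.10, -0.07, 0.45 and -0.06 in the double mutant, 0.51, 0.52, 0.29 and 0.13 in mes-4 and -0.22, -0.08, -0.14 and 0.19 in mes-2. All 4 mes-4 arrays were above 0 and overlapped both other groups. The rise in mes-4 was 0.36 (SE 0.08, adjusted p = 0.0359), and it was lost in 12 of 23 alternatives, among them those without any 1 of the 4 mes-4 arrays, without mes-2 replicate 1, 3 or 4 and without double-mutant replicate 2 or 4. Directly beside nlp-2 on X lies lgc-40, a ligand-gated ion channel gene, which was above 0 on all 12 arrays. It rose by 0.58 in the double mutant (adjusted p = 0.0446), had 0.585 in mes-4 (adjusted p = 0.102) and rose by 0.785 in mes-2 (adjusted p = 0.0248). On the other side, with 1 gene between, lies nlp-22, a sleep-promoting peptide gene. It had -0.16 in mes-4, over 3 arrays, and no call.

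The gene nlp-24 on chromosome V read 0, 0.15, -0.29 and 0.14 in the double mutant, -0.86, -0.61, -0.07 and -0.03 in mes-4 and 0.07, -0.33, 0.16 and -0.27 in mes-2. In mes-4 both arrays with the mutant RNA in Cy5 were near 0 and both with it in Cy3 were low. The fall in mes-4 was -0.39 (SE 0.09, adjusted p = 0.0338), and the call was lost in 11 of 23 alternatives, among them those without any 1 of the 4 mes-4 arrays and without mes-2 replicate 2, 3 or 4. It belongs to the nlp genes numbered nlp-24 to nlp-34, several of which the epidermis turns on as antimicrobial peptides after fungal infection. Of the 7 tested, 0 passed in the double mutant, 1 (nlp-24) was lower in mes-4 and 0 passed in mes-2. Over all genes tested, 15.9%, 3.91% and 5.25% passed in that order of mutants. The medians of the 7 were -0.03, -0.17 and -0.09 in the same order. The 20 hypodermis and cuticle markers, the tissue of these peptides, had 1 call in the double mutant (sqt-3, higher), 1 in mes-4 (rol-6, lower) and 1 in mes-2 (che-14, higher). In mes-4 their medians by array were 0.08, -0.08, -0.07 and -0.14, single genes ran from -0.93 to 0.41, and 5 of 20 had an unadjusted p under 0.05 in limma. Some of them were low on the same 2 mes-4 arrays as nlp-24, among them the collagen gene col-19, at -1.48, -1.79, -0.23 and -0.13. So was dpy-5, at -1.59, -1.27, -0.37 and -0.48. Others were above 0 on those 2 arrays, such as bli-1 (0.53 and 0.49) and wrt-2 (0.61 and 0.46). These genes were chosen after their values were seen. Of the 20 markers, 7 had a fitted value above 0 in mes-4. The part of the markers in the nlp-24 result was not tested.

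Members that missed the threshold but were on 1 side of 0 on all 4 double-mutant arrays included nlp-91, nlp-34, ins-6 (-0.115) and nlp-35 (0.07). The X-linked nlp-91 read 0.09, 0.25, 2.15 and 0.51 there (0.75, adjusted p = 0.114) and -0.58, -0.73, -0.09 and -0.58 in mes-2 (-0.50, adjusted p = 0.456). The double mutant minus mes-2 was 1.25 (SE 0.41) and missed the threshold too (adjusted p = 0.114). The gene nlp-34 read -0.35, -0.64, -1.14 and -0.47 in the double mutant (-0.65, adjusted p = 0.111), and passed there when mes-2 replicate 3, at -1.33 for this gene, was left out of the fit (adjusted p = 0.00728).

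Among members above 0 on all 4 mes-2 arrays, ins-7 had the highest value after the 3 that rose. It encodes a DAF-2 agonist that takes part in feedback between intestine and other tissues. It had 0.15 in the double mutant and -0.22 in mes-4. In mes-2 it read 0.25, 0.33, 0.50 and 0.86, for 0.49 (SE 0.16, adjusted p = 0.122), and passed with array weights (0.50, adjusted p = 0.0320) and in the fit on 9 arrays without the high end of the main residual axis (adjusted p = 0.0351). The gene ins-23 was the lowest in mes-2, at -0.74, -0.52, -0.79 and -0.08 (-0.53, adjusted p = 0.354).

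Further DAF-2 ligands with known roles in dauer entry and reproductive growth did not pass the threshold in any mutant. The agonist gene ins-6 lay between -0.18 and 0.20 on all 12 arrays, and ins-4 had -0.08 in the double mutant, -0.05 in mes-4 and 0.10 in mes-2. By dye, ins-4 averaged -0.42 with the mutant RNA in Cy5 and 0.40 with it in Cy3, and the dye term of the limma fit passed the threshold (adjusted p = 0.0115). The antagonist gene ins-1 read 0.03, 4.05, -0.64 and 0.19 in mes-2. A single array, replicate 2, thus made its value of 0.91 there (SE 0.51, adjusted p = 0.435), and its values on the 8 other arrays lay between -0.35 and 0.43. A relative outside the 3 symbol groups, the insulin-like gene daf-28, had -0.42 in the double mutant, -0.03 in mes-4 and -0.14 in mes-2, with no call.

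Dye orientation separated the arrays more than the mutation did for many members. The dye term of the fit passed the threshold for 32 of 84 members (38.1%), where 32% of all genes passed. Of these, 8 read higher with the mutant RNA in Cy5 and 24 with it in Cy3, whereas over all genes 1965 read higher in Cy5 (15.2% of the genes tested) and 2160 in Cy3 (16.8%). All 9 ins genes that passed and all 9 X-linked members that passed were on the Cy3 side. X-linked genes as a whole leaned the same way, with 152 higher in Cy5 and 381 in Cy3 among the 533 that passed. Among the antimicrobial nlp group, 3 of 7 passed, all on the Cy5 side. Within the double mutant, ratios over the members correlated at 0.28 to 0.64 between arrays of the same dye orientation and at -0.38 to 0.21 between arrays of opposite orientation. Within mes-4 these ranges were 0.36 to 0.83 and -0.60 to -0.40, and within mes-2 0.55 to 0.77 and -0.26 to -0.10 (84 members at most, which share each array's labelling).

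The plainest case was nlp-19 on X. It read 2.00, -2.36, 2.58 and -1.30 in the double mutant, 2.31, 1.82, -1.08 and -2.43 in mes-4 and -2.85, 3.00, -3.05 and 3.72 in mes-2. Every array with the mutant RNA in Cy5 was below -1 and every array with it in Cy3 was above 1.8. The Cy5 arrays averaged -2.18 and the Cy3 arrays 2.57, a difference of -4.75 (SE 0.43, adjusted p = 1.60e-04), while the 3 mutant values were 0.23, 0.16 and 0.21 with no call. The sign followed the dye on every array with a value for 8 members (9.52%), chosen here after their values were seen: flp-27, ins-26, ins-39, nlp-8, nlp-19, nlp-39, nlp-45 and nlp-67. Over all genes tested it did so for 977 (7.58%).

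**Figure D4:**
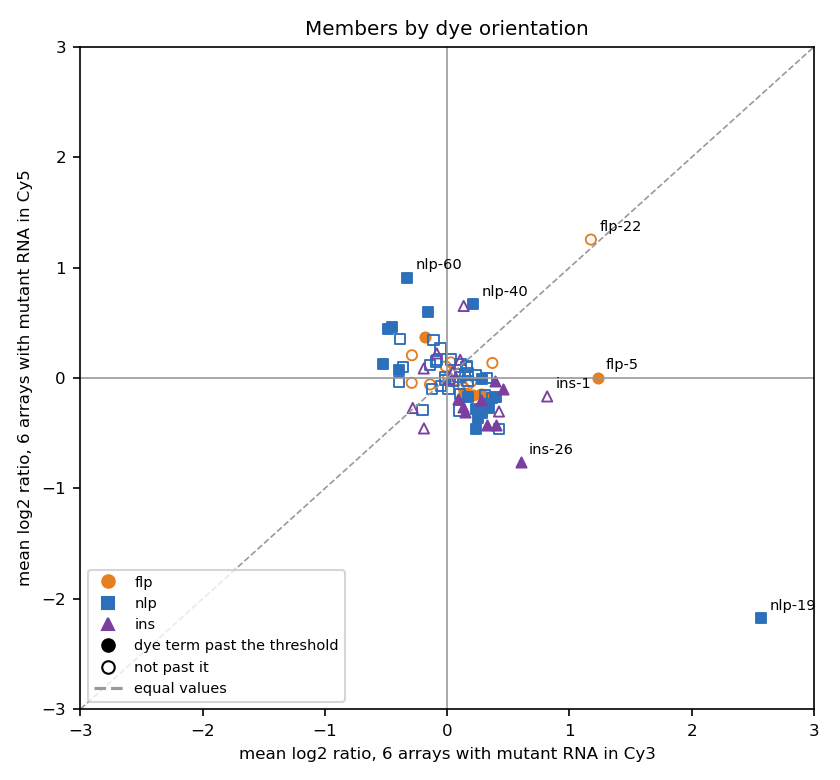
Mean log2 ratio of each of the 84 members over the 6 arrays with the mutant RNA in Cy5 (vertical axis) against the 6 arrays with it in Cy3 (horizontal axis), filled where the dye term passed the threshold. The gene nlp-19 stands at -2.18 in Cy5 and 2.57 in Cy3, 38 members lie below 0 in Cy5 and above 0 in Cy3, 19 lie the other way round, and 27 have the same sign in both.

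Few members lay on 1 side of 0 on every array of a group. On the double-mutant arrays 11 of 84 did (13.1%), against 21.9% of all genes tested. In mes-4 the count was 7 (8.33%, against 17.6%), and in mes-2 it was 12 (14.3%, against 20.1%). The difference between the members and all genes was not tested. Each member past the threshold against wild type had all its arrays of that group on 1 side.

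The X chromosome held 17 of the 84 members (20.2%), against 13.2% of all genes tested, and the autosomes 67. Since both MES proteins help to keep X-linked genes low in the germ line, the X-linked members were set beside all X-linked genes. Of 17 X-linked members 1 passed in the double mutant (flp-5), where 390 of 1697 X-linked genes did (23.0%). In mes-4 it was 1 of 17 (nlp-2), where 197 of 1697 did (11.6%), and in mes-2 it was 0 of 17, where 68 of 1697 did (4.01%). Left out for missing values were the X-linked flp-3, flp-7, flp-12, flp-20, nlp-1, nlp-3, nlp-6, nlp-7, nlp-23, nlp-61, nlp-64 and nlp-101. Of these, flp-12 and nlp-64 had values on all 4 double-mutant and all 4 mes-4 arrays and none in mes-2. The counts for X-linked members thus cover only those that could be tested. The median of X-linked members was 0.04 in the double mutant, 0.04 in mes-4 and 0.05 in mes-2, and that of all X-linked genes was 0.10, 0.06 and 0.02.

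Per array, the median of X-linked members minus that of autosomal members averaged -0.03 ± 0.24 in the double mutant, 0.03 ± 0.25 in mes-4 and -0.06 ± 0.12 in mes-2 (SD, n = 4 each). The same difference over all genes averaged 0.15 ± 0.12, 0.14 ± 0.09 and 0.04 ± 0.11. For the members the spread was wider than the mean in each mutant. Within each dye the members' difference was -0.22 on Cy5 arrays and 0.16 on Cy3 arrays of the double mutant, -0.19 and 0.25 in mes-4, and -0.16 and 0.05 in mes-2. All 6 Cy5 arrays were below 0 and all 6 Cy3 arrays above it, so the X-linked members gave no shift that held in both orientations.

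**Figure D5:**
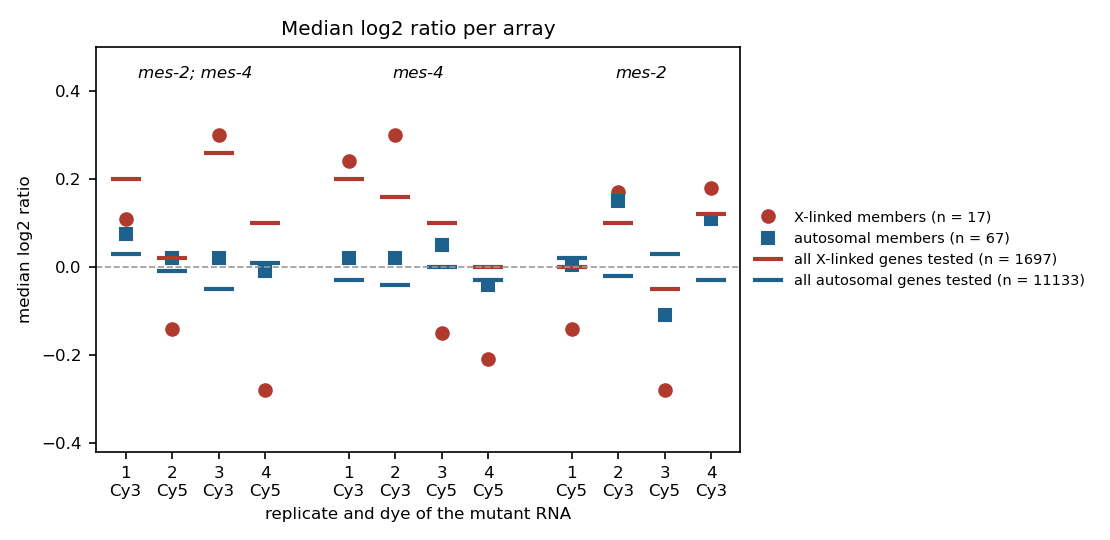
Median log2 ratio per array for the 17 X-linked members (circles), the 67 autosomal members (squares), all 1697 X-linked genes tested (red bars) and all autosomal genes tested (blue bars), by mutant, replicate and dye of the mutant RNA. The circles lie below 0 on all 6 Cy5 arrays and above 0 on all 6 Cy3 arrays.

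Of 19 genes tested that process and release peptides, 4 rose and 0 fell in the double mutant (21.1%, where 15.9% of all genes passed). In mes-4, 0 passed (3.91% of all genes), and in mes-2, 2 rose and 0 fell (10.5%, where 5.25% of all genes passed). The medians over the list were 0.12, 0.05 and 0.08 in that order. The gene unc-31, which encodes the CAPS protein needed for dense-core vesicle release, rose by 0.84 in the double mutant (SE 0.22, adjusted p = 0.0237), had 0.34 in mes-4 without a call and rose by 2.90 in mes-2 (SE 0.22, adjusted p = 3.01e-05). The gene ric-19, which acts in dense-core vesicle maturation, rose by 1.18 in the double mutant (SE 0.20, adjusted p = 0.00240), had 0.30 in mes-4 and rose by 1.95 in mes-2 (SE 0.20, adjusted p = 2.90e-04). The synaptobrevin gene snb-1 (0.78, adjusted p = 0.00183) and hid-1 (0.68, adjusted p = 0.00852), another gene of dense-core vesicle function, also passed in the double mutant, and neither passed in mes-4 or mes-2. The enzymes of precursor cleavage and amidation that could be tested, aex-5, egl-21, cpd-1, cpd-2, pgal-1 and pghm-1, gave no call in any mutant. That choice of enzymes was made with their values known.

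Of 72 peptide receptor genes tested, 4 rose and 4 fell in the double mutant, 1 rose and 1 fell in mes-4, and 3 rose and 2 fell in mes-2. Their shares past the threshold were 11.1%, 2.78% and 6.94% in that order, beside 15.9%, 3.91% and 5.25% of all genes. The receptor egl-6 on X, through which the peptides of flp-10 and flp-17 inhibit egg laying, had the largest change past the threshold in the double mutant and in mes-4. It read 2.74, 4.46, 5.02 and 3.80 in the double mutant, 1.74, 1.86, 1.68 and 2.74 in mes-4 and 0.98, 0.99, 1.03 and 1.18 in mes-2. All 12 arrays were above 0, and the double mutant overlapped mes-4 only at 2.74. The rise was 4.01 in the double mutant (SE 0.29, adjusted p = 8.77e-06) and 2.01 in mes-4 (adjusted p = 0.00306), while mes-2 at 1.05 missed the threshold (adjusted p = 0.0725). The double mutant exceeded mes-2 by 2.96 (SE 0.42, adjusted p = 0.00219) and mes-4 by 2.00 (SE 0.42, adjusted p = 0.0395), and non-additivity was 0.96 (SE 0.51, adjusted p = 0.511).

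Neither ligand gene of EGL-6 passed the threshold. The gene flp-10 had 0.32 in the double mutant (adjusted p = 0.224), 0.02 in mes-4 and -0.05 in mes-2, and flp-17 had -0.43 (adjusted p = 0.350), 0.16 and 0.003, the last over 3 arrays. For flp-10 the double-mutant arrays read 0.54, 0.24, -0.42 and 0.93, so that 3 of 4 were above 0. It passed in the double mutant with array weights (0.56, adjusted p = 0.0119) and in the fit on 10 arrays without the low end of the residual axis, where 2 double-mutant arrays remain (0.74, adjusted p = 0.00897).

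Other receptors passed the threshold in 1 or more mutants. The double-mutant values of dmsr-4 (-0.82), npr-28 (-0.67), frpr-10 (-0.53) and gnrr-5 (-0.37) were lower, and those of npr-29 (0.52, over 3 arrays), npr-18 (0.50) and trhr-1 (0.38) higher. In mes-4 dmsr-4 fell to -0.71. In mes-2 npr-3 (1.15, over 3 arrays), npr-15 (0.99) and frpr-14 (0.75, over 3 arrays) rose, and npr-10 (-0.36) and npr-28 (-0.33) fell. The ligands flp-18 and flp-21 of the feeding-behaviour receptor NPR-1 lay within 0.11 of 0 in all 3 mutants, and npr-1 had values on 5 arrays only and was not tested. The gene nlp-12, whose peptides act in locomotion through CKR-2, had -0.06, -0.11 and -0.13, and ckr-2 had values on 8 arrays. The stress-sleep peptide gene flp-13 had -0.15, 0.06 and 0.09, and npr-11 and npr-22, whose ligand genes nlp-1 and flp-11 were not tested, had no call.

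Of 12 insulin pathway genes tested, 1 rose in the double mutant (8.33%, where 15.9% of all genes passed). The gene that rose was asna-1, which promotes insulin secretion (0.48, SE 0.10, adjusted p = 0.00621). In mes-4 and mes-2, 0 passed, where 3.91% and 5.25% of all genes did. The receptor gene daf-2 had values on 7 arrays and was not tested. Of 5 peptide genes outside the flp, nlp and ins symbols (daf-7, daf-28, lury-1, pdf-2 and trh-1), 0 passed in any mutant.

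Few neuron markers passed the threshold. Of 16 tested, 1 rose in the double mutant (snb-1, also counted above), 1 rose in mes-4 (unc-119, 1.57, adjusted p = 1.33e-04) and 0 passed in mes-2. That was 6.25% in the double mutant and in mes-4, where 15.9% and 3.91% of all genes passed. The list's medians were 0.06, 0.02 and -0.04. Among 26 germ line and oocyte markers, 8 fell in the double mutant, 1 in mes-4 (gld-1) and 0 in mes-2. In the double mutant that was 30.8%, all lower, where 15.9% of all genes passed and 6.25% passed as lower. In mes-4 it was 3.85%, where 3.91% of all genes passed. Among 16 sperm markers, 1 rose and 3 fell in the double mutant, 2 fell in mes-4 and 2 rose in mes-2. The 4 of 16 in the double mutant stand beside 15.9% of all genes. In mes-4 and in mes-2 the share was 12.5% each, where 3.91% and 5.25% of all genes passed. No early embryonic marker of 13 passed in any mutant. The part of these lists in the members' results was not tested.

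The 23 genes left out for missing values were flp-3, flp-7, flp-12, flp-14, flp-20, ins-3, ins-24, ins-30, ins-32, nlp-1, nlp-3, nlp-6, nlp-7, nlp-20, nlp-23, nlp-25, nlp-27, nlp-29, nlp-30, nlp-50, nlp-61, nlp-64 and nlp-101. Of these, 10 had values on 1 to 5 arrays and 13 on 6 or more, and their single values ran from -1.75 to 2.40. Among the 84 tested, 76 had a value on all 12 arrays. A probe may also bind transcripts of a closely similar family member, which these ratios cannot tell apart.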

How the data were processed

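Amplified poly-A RNA of dissected germ lines was labelled with Cy3 or Cy5 and hybridised, 1 mutant and 1 wild-type sample per array, per the labels' protocols, and the series design states that the 4 replicates of a group were harvested independently. The deposited table holds 1 value per probe and array, which the authors processed to a log ratio that is read here as log2 of mutant over wild type. Its log base, direction and normalization are not given in the sources used here: base 2 was assumed, and positive was read as higher in the mutant from the order of the channels, a reading under which the mes-2 probe is below 0 on all 8 arrays with RNA of mes-2 mutants.

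Of 22490 probes, 17461 name 1 gene in the platform annotation and 5029 none, and several probes of a gene were averaged. Genes missing from no more than 1 of the 4 arrays of each mutant were fitted over all 12 arrays with limma 3.58.1 (R 4.3.3), with a coefficient per mutant and a centred term for the mutant's dye, which was swapped on 2 of 4 arrays in each group. Benjamini-Hochberg adjustment ran over 12887 genes, and 84 of 107 members were tested. The fit was also run on simulated data whose noise was drawn separately for each gene and array. Such noise lacks the main residual axis of these arrays, so that run cannot show how the axis affects the calls. Chromosomes and neighbours came from RefSeq's WBcel235 annotation.

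Members, gene lists and tests were chosen with earlier results of these data known. Named genes are mes-2 and mes-4, every member called in a comparison, in each mutant the 4 highest and 4 lowest members whose arrays all lay on 1 side of 0, the member of each family with the widest range, called genes of the related lists (at most 4 in each direction), and known ligand and receptor pairs. Residual correlations between same-numbered replicates ran from -0.473 to 0.540. They cannot settle whether the numbers pair the samples, since 1 axis takes 47% of the residual variance. The main fit took the replicates as unpaired. Alternatives were the dye term, the replicate block, the missing-value filter, array scaling and weights, moderation, the choice of probe, the arrays fitted and leaving out each array.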

Additional observations from a re-analysis of the deposited data

Results flagged for a closer look

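Among 241 sets of 4 arrays (1 member in 1 mutant), 12 had a lowest or highest array that stood apart from the other 3 by Dixon's criterion. The criterion flags about 1 in 20 sets of 4 values drawn from a common normal distribution. Each set here mixes both dye orientations, so that rate need not hold, and the count was not tested against chance. In the double mutant the array that stood apart was replicate 3 for flp-26 (-0.12). In mes-4 it was replicate 4 for ins-5 (-0.21), ins-34 (-0.21), ins-35 (-0.64) and nlp-4 (-0.42), replicate 3 for ins-23 (0.97) and nlp-5 (0.62), and replicate 2 for nlp-91 (-0.51). In mes-2 it was replicate 4 for flp-32 (0.42), replicate 3 for nlp-34 (-1.33) and nlp-52 (-0.11), and replicate 2 for nlp-10 (-0.45). None of these 12 was past the threshold in the mutant concerned.

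The responses of 2 members differed between mutants by the test of the difference itself in limma. For flp-4 the double mutant exceeded mes-2 by 1.31. For nlp-40 the double mutant differed from mes-2 by -1.495 and mes-4 from mes-2 by -1.755, and the double mutant differed from the sum of the single mutants by -1.265. The mes-2 arrays, all of a single mutant strain, enter all of these differences.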

How the results depend on the processing

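Under every alternative run, the 13 called values of members kept their sign, and nlp-40 in mes-2 (1.49 to 1.58) and flp-22 in mes-2 (1.70 to 2.60) kept their calls in all that tested them (23 and 22). Counts of members past the threshold moved as follows, against 4 in the double mutant, 2 in mes-4, 3 in mes-2, 2 for the double mutant minus mes-2, 0 for double minus mes-4, 1 between mes-4 and mes-2 and 1 for non-additivity. Without the dye term there was 1 in the double mutant, 0 in mes-4, 1 for double minus mes-2 and 0 for non-additivity. With array weights there were 11 in the double mutant, 5 in mes-4, 5 in mes-2, 10 for double minus mes-4, 5 between mes-4 and mes-2 and 4 for non-additivity. On the arrays of the compared groups alone there were 0 in the double mutant, 0 in mes-4 and 1 for double minus mes-2. With values required on all 12 arrays there were 2 in the double mutant and 1 for double minus mes-2. Scaling arrays to a common spread left 2 in the double mutant, and trend and robust moderation left 1 in mes-4. The fit on 9 arrays, without double-mutant replicates 1 and 4 and mes-4 replicate 3, gave 6 in mes-2, 4 for double minus mes-2 and 2 for mes-4 minus mes-2. The fit on 10 arrays, without double-mutant replicates 2 and 3, gave 9 in the double mutant, 5 for double minus mes-2 and 2 for double minus mes-4. Leaving out 1 array at a time gave 1 to 4 in the double mutant, 0 to 2 in mes-4, 2 to 4 in mes-2, 1 to 3 for double minus mes-2, 0 for double minus mes-4, 1 between mes-4 and mes-2 and 1 for non-additivity each time. With the replicate number as a block there were 3 in the double mutant, 0 in mes-4, 2 in mes-2 and 2, 0, 1 and 1 for the 4 differences in the order above. Counts over all genes moved as well. Leaving out 1 array at a time gave 1289 to 2152 genes in the double mutant, 210 to 681 in mes-4 and 357 to 795 in mes-2. For the 4 differences in the order above the ranges were 474 to 833, 69 to 261, 100 to 342 and 72 to 190. The other alternatives are given here for the members only, so their counts cannot be read as particular to the members. The causes of these changes were not tested. Ratios without intensities give no signal over background, so a member near background on both channels cannot be told from one that did not change.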
